A study of Mus musculus with 14 samples.

Results

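The 55 genes described here encode the machinery of mitosis and chromosome segregation: CDK1 with its cyclins, the Polo and Aurora kinases, the spindle checkpoint, kinetochore and spindle proteins, condensin and the cytokinesis factors. They were chosen by symbol from a list of names. The rule used no measured value, but the list was made with earlier results of these data known. All 55 were found among the 55367 gene symbols of the study. Messenger RNA was sequenced from primary mouse bone marrow cells that had been depleted of lineage-positive cells (Lin- cells, a preparation enriched in blood progenitors) and kept in medium with added SCF, IL6 and IL3, which are haematopoietic cytokines. In the earlier experiment, 3 libraries came from cells transduced with a lentivirus for luciferase, the control, and 3 from cells transduced with the mutant SETBP1-D868N. In the later experiment all 8 libraries came from cells carrying SETBP1-D868N, of which 4 received the solvent DMSO and 4 received PF-9363 at 2.5 µM for 4 days. SETBP1 is a chromatin-associated protein that is mutated in myeloid malignancies, and PF-9363 inhibits histone acetyltransferases of the MYST family. The labels give the genotype of the mice as wild-type and do not say whether transduced cells were sorted, how many animals each library came from, or whether replicates were separate cultures. The p-values below therefore measure the spread between these libraries, which may be technical. No libraries were shared between the experiments, which also differed in RNA input (500 ng against 100 ng), in library preparation and in depth, so values are compared only within an experiment.

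As background, transcripts of mitotic genes accumulate late in the cell cycle, in G2 and M phase, and are low in cells that have left the cycle. Their promoters are bound by the MuvB complex, which represses them in resting cells as part of the DREAM complex and activates them together with B-MYB and FOXM1 in dividing cells. MuvB contacts a short element named CHR (cell cycle genes homology region), and the trimeric factor NF-Y binds CCAAT boxes that often lie just upstream of it. In bone marrow, division is restricted largely to progenitors and precursors, and mature neutrophils and macrophages rarely divide. In bulk libraries, fewer dividing cells and less of these transcripts per cell cannot be told apart.

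RefSeq promoter sequences (GRCm38.p6) were matched for 45 of the 55 genes, with 47 start sites in all. The 250 bases before each start were searched on both strands for CHR, taken as TTTGAA or TTCGAA, and for CCAAT. The 5 windows printed here show the range from several matches to none. Matches are in capitals, a match to the reverse strand shows as TTCAAA or ATTGG, and each window lies outside the GENCODE M21 model of its own gene. They run 5′ to 3′ on the strand of the gene.
Top2a (chr11:99024190-99024439, minus strand): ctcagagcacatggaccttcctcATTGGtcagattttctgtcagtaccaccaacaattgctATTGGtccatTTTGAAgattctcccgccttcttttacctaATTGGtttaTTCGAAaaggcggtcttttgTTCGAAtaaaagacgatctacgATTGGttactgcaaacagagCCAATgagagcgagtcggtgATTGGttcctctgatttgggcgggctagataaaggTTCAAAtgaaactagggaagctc
Ckap2l (chr2:129297213-129297462, minus strand): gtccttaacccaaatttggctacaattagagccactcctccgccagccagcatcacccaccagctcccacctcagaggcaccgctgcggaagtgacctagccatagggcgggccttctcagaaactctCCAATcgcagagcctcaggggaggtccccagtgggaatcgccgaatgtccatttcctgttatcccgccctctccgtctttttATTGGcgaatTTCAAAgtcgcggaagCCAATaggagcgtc
Ccnb2 (chr9:70421555-70421804, minus strand): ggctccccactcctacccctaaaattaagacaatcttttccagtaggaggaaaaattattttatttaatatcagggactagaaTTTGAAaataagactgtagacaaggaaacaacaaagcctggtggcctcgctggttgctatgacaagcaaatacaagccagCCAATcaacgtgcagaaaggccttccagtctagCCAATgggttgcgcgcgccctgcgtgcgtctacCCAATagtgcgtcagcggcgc
Kif11 (chr19:37376132-37376381, plus strand): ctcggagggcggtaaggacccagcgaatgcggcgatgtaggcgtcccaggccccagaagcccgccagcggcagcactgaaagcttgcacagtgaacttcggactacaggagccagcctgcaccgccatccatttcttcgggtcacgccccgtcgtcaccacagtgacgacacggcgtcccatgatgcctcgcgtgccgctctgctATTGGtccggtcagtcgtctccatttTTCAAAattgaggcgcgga
Ndc80 (chr17:71526858-71527107, minus strand): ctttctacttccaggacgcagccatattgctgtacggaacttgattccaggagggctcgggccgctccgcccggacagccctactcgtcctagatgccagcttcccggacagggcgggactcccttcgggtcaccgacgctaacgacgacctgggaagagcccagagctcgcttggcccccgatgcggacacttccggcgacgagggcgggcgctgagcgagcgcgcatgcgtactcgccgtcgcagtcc

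Top2a, which encodes the DNA topoisomerase that untangles sister chromatids, had 4 CHR and 6 CCAAT matches in its window. Ckap2l held 1 CHR and 3 CCAAT matches, Ccnb2 also 1 and 3, and Kif11 1 of each. The Ndc80 window held neither motif. CCAAT stood in 37 of the 47 windows (78.7%), against 33.8% of 32851 mouse promoters of the same length. At least 2 CCAAT matches were found in 24 windows (51.1%), against 10.1% of all promoters. CHR stood in 20 windows (42.6%), against 17.1% of all promoters, and both motifs in 18 (38.3%), against 6.02%. With TTTGAA alone the share was 40.4%, against 16% of all. Of the 27 CHR matches in these windows 11 lay within 50 bases of the start, and of the 81 CCAAT matches 55 lay within 100 bases. A match is a description of the letters and does not show a bound site. The Pttg1 window held no match, but it lies wholly inside the longer M21 model of that gene, as do 4 other windows, so it may not be the promoter of the transcript counted.

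**Figure D1:**
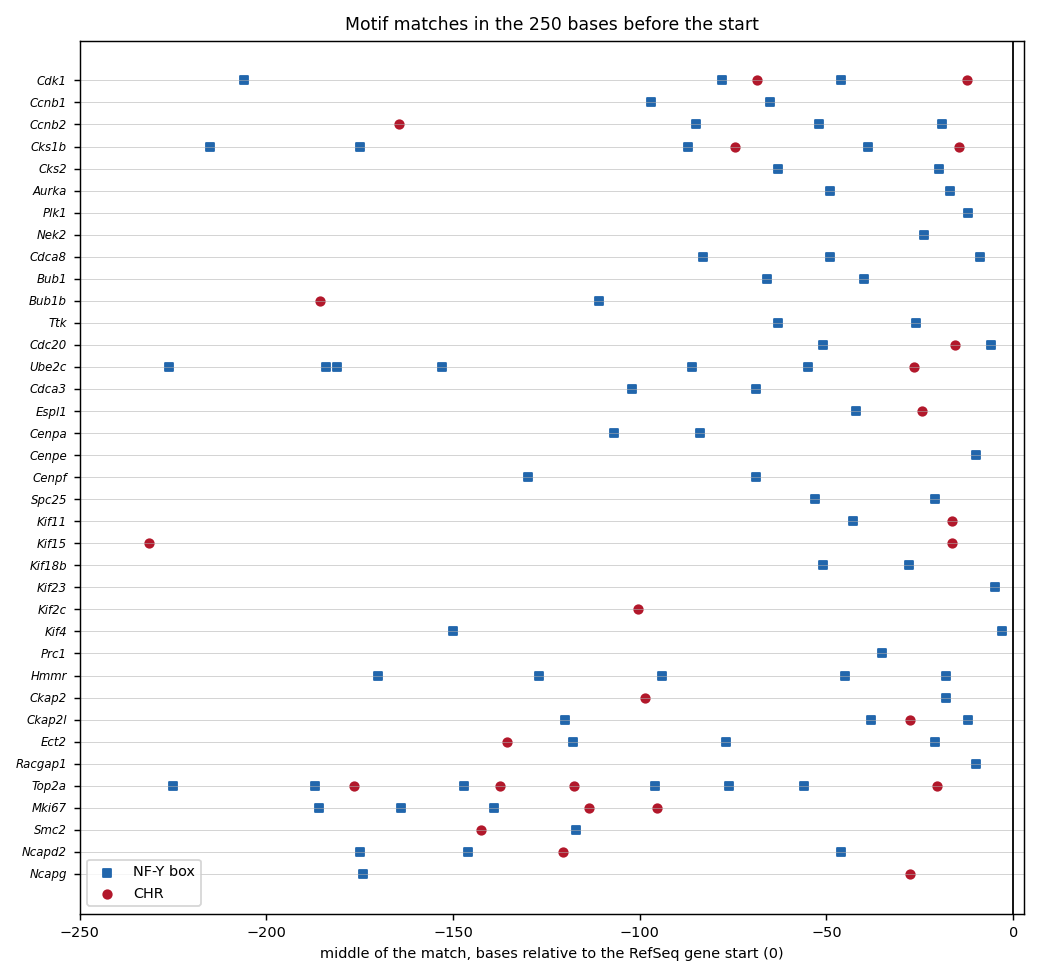
Position of each match in the 250 bases before the RefSeq start (x axis, bases relative to the start at 0) for the genes with at least 1 match (y axis), 1 start per gene. Blue squares mark CCAAT, the NF-Y box, and red circles mark CHR. Over all starts 55 of 81 CCAAT matches lie within 100 bases of the start.

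The earlier experiment held 60147266 to 68730322 counts per library and the later one 7083731 to 10359093. Levels are given as CPM, the count scaled to a common library size with TMM factors, which balance composition. By library size alone, without these factors, a count of 3 corresponded to 0.0436 to 0.0499 and to 0.290 to 0.424 CPM. After a filter on low counts 15794 and 13456 genes were tested, and all 55 mitosis genes passed it in both. The lowest count of any of them in a PF-9363 library was 19, for Spc24 in PF-9363 3. The mouse Setbp1 row held 5, 6 and 6 counts in the luciferase libraries and 23, 20 and 24 in those labelled SETBP1-D868N. In the later experiment it held 2, 1, 0 and 0 counts with DMSO and none with PF-9363, so this row cannot check the transgene there. Markers of mature blood cells were abundant in all libraries: 6 late neutrophil genes (Ltf, Camp, Ngp, S100a8, S100a9 and Retnlg) summed to 20919.5 ± 365 CPM with luciferase, and 6 progenitor genes (Kit, Cd34, Flt3, Sox4, Spi1 and Gata2) to 1136 ± 9.94 CPM (SD, n = 3). In the later experiment the markers of other lineages were low: 4 B cell genes summed to 5.89 to 10.2 CPM with DMSO and 0.309 to 1.52 CPM with PF-9363, 6 T cell genes to 1.36 to 2.48 and 1.52 to 3.22 CPM, 5 erythroid genes to 1.36 to 2.99 and 1.80 to 4.05 CPM, and 5 genes of stroma and endothelium to 2.54 to 3.75 and 6.83 to 8.24 CPM. Of these lists, Cd79b fell and Pdgfrb rose with PF-9363, and Ebf1, Cd3e, Cd3g, Cd8a and Col1a2 were at 0 in all 8 libraries.

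With SETBP1-D868N many of the mitosis genes were slightly higher than with luciferase, and with PF-9363 nearly all were several-fold lower than with DMSO. The summed level of the 55 genes was 7501, 7175 and 7179.7 CPM in luciferase libraries 1 to 3 and 7426, 7674 and 7829 CPM in the SETBP1-D868N libraries, so the groups overlapped. It was 6991, 7023, 7031 and 6699.5 CPM with DMSO and 1713, 2069.7, 961 and 1000.3 CPM with PF-9363, in replicate order. Every PF-9363 library was below every DMSO library, and the mean was 20.7% of the DMSO mean.

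**Figure D2:**
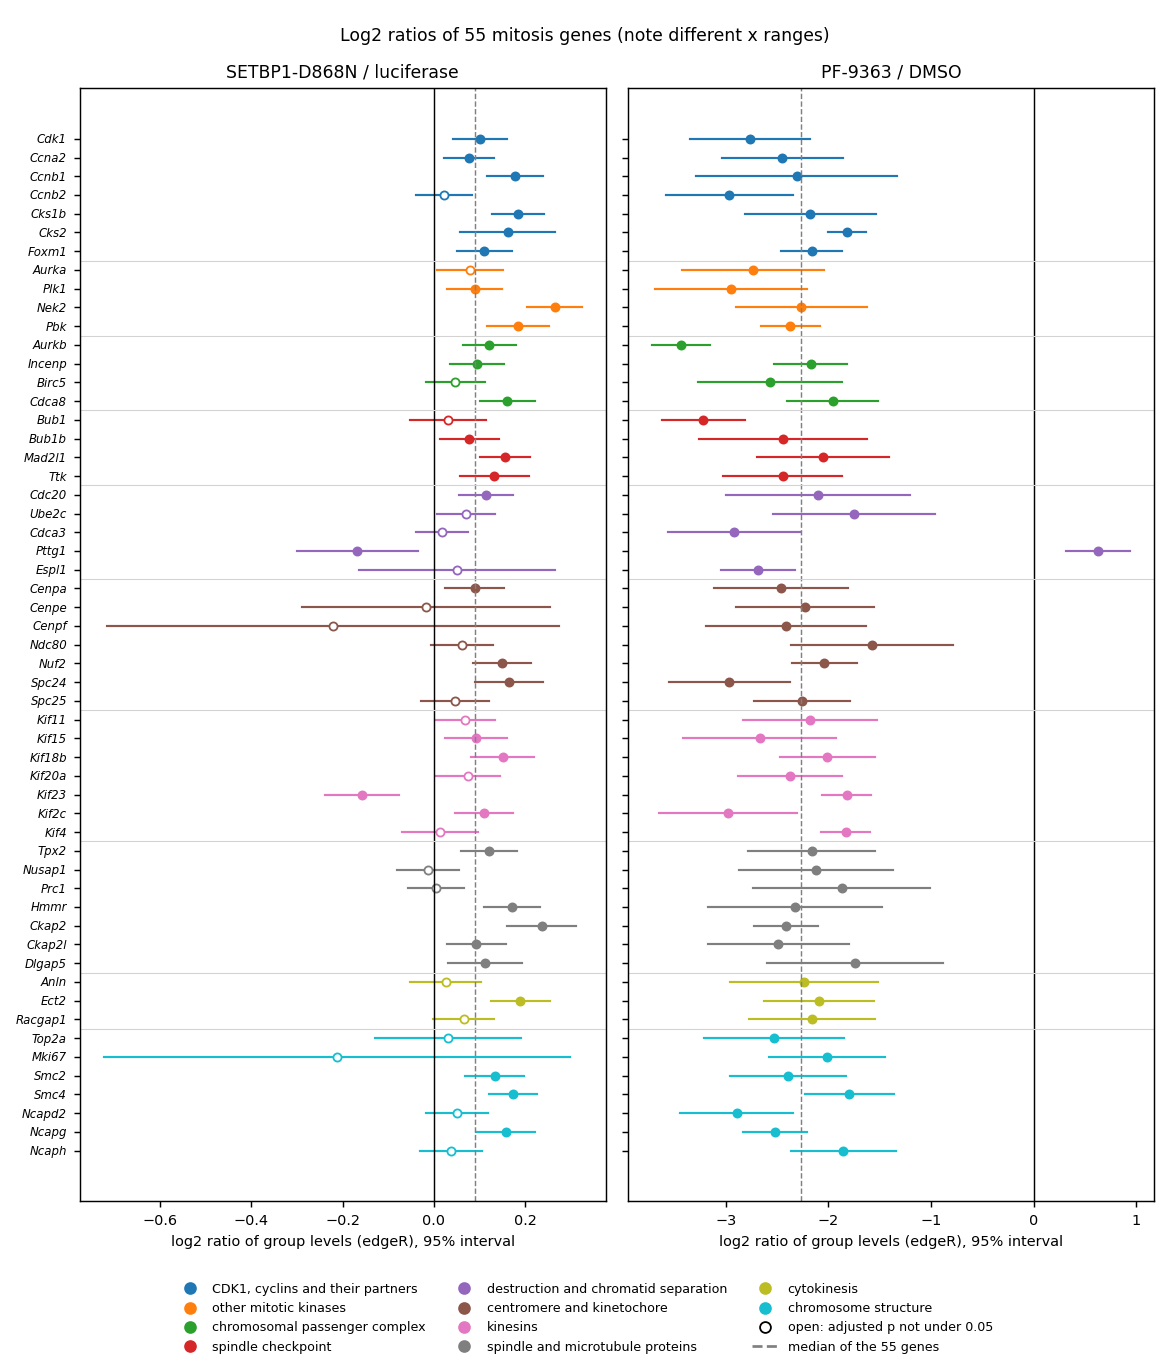
Log2 ratio of group levels for each gene (points, edgeR) with its 95% interval (bars), by role, for SETBP1-D868N over luciferase (left) and PF-9363 over DMSO (right). Filled points passed an adjusted p of 0.05 and the dashed line is the median of the 55 genes. On the right 54 genes lie between -3.44 and -1.57, and Pttg1 at 0.63.

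The SETBP1-D868N comparison asked how the mutant changes expression relative to the luciferase control. Library values below stand in the order of replicates 1 to 3, and each log2 ratio is given with its SE. Of the 55 genes 31 rose, 2 fell (Kif23 and Pttg1) and 22 did not pass the test (edgeR quasi-likelihood, adjusted p under 0.05 over all genes). Among all 15794 genes tested, 24.5% were called higher and 22.7% lower, 47.2% in all. The changes were small: the median log2 ratio was 0.090, against 0.0043 over all genes, and none of the 55 changed at least 2-fold, against 1.34% of all genes higher and 2.48% lower by that much. Groups did not overlap for 34 of the 55 genes (61.8%), against 56.7% of all genes. Scaling by library size alone moved the median of all genes by 0.049 and left 41 genes called higher and 1 lower. Leaving out 1 library at a time left 22 to 30 called higher, and 20 of the 31 kept their call in each of these 6 fits. The other 11, whose calls were lost without at least 1 library, were Bub1b, Ccna2, Cdk1, Cenpa, Ckap2l, Cks2, Dlgap5, Incenp, Kif15, Kif2c and Plk1.

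CDK1 with cyclin B is the kinase that drives entry into mitosis, and 6 of the 7 genes of this group rose. Cdk1 stood at 152, 152 and 147 CPM with luciferase and at 163, 161 and 159 CPM with SETBP1-D868N (log2 ratio 0.10 ± 0.027, SE). Ccnb1, which encodes cyclin B1, went from 145, 142 and 139 to 158, 164 and 159 CPM (0.18 ± 0.028). All 3 mutant libraries were above all 3 controls for both genes. Cks1b and Cks2 encode small CDK-binding subunits. Cks1b rose from 95.1, 93.6 and 94.001 to 107, 107 and 107 CPM (0.18 ± 0.026, adjusted p = 1.08e-04). Cks2 had 61.1, 57.7 and 56.6 CPM with luciferase and 68.9, 61.002 and 66.4 CPM with the mutant, where SETBP1-D868N 2 lay within the control range. Foxm1, the transcription factor of late cell cycle genes, rose from 99.9, 102 and 100.2 to 107, 111 and 107 CPM (0.11 ± 0.028). Ccna2, for cyclin A2, rose by a log2 ratio of 0.076 (adjusted p = 0.0246), while Ccnb2, for cyclin B2, did not pass the test (0.022 ± 0.028). The Cdk1 call was lost without luciferase 3 (adjusted p = 0.0582), and that of Cks2 without luciferase 2 or 3 or SETBP1-D868N 1 or 3 (adjusted p = 0.0599, 0.0650, 0.0591 and 0.0540).

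Among the other mitotic kinases the largest rise of all 55 genes was that of Nek2, which acts in centrosome separation: 61.8, 61.9 and 62.5 CPM with luciferase against 74.8, 74.5 and 74.4 CPM (0.26 ± 0.027, adjusted p = 9.17e-06). The mutant mean was 120.1% of the control mean, and libraries of each group differed from each other by far less. Pbk, a kinase active in mitosis, rose by 0.19 ± 0.031. Plk1, the Polo kinase of spindle and mitotic exit, was at 156, 153 and 149 CPM with luciferase and 159.9, 162 and 165 CPM with the mutant (0.090 ± 0.027, adjusted p = 0.0180), a call lost without luciferase 2 or 3 or SETBP1-D868N 2 or 3 (adjusted p = 0.0584, 0.0973, 0.0529 and 0.0682). Aurka, the Aurora kinase of the spindle poles, was just outside the threshold, with 97.004, 90.7 and 97.7 against 99.4, 101 and 101 CPM and an adjusted p of 0.0661. Its groups did not overlap.

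In the chromosomal passenger complex, which corrects faulty kinetochore attachments, Aurkb rose from 138, 136 and 138 to 151, 146 and 151 CPM (0.12 ± 0.027). Its partners Incenp and Cdca8 (borealin) also rose, by 0.095 and 0.16 on the log2 scale, while Birc5 (survivin) did not pass the test at 117, 115 and 114 against 123, 120.1 and 116 CPM. Of the spindle checkpoint genes, which delay anaphase until chromosomes are attached, 3 of 4 rose. Mad2l1 went from 132, 131 and 133 to 148, 148 and 146 CPM (0.15 ± 0.025) with no overlap, and Ttk, the MPS1 kinase, rose by 0.13 ± 0.034. Bub1b (BUBR1) was just inside the threshold, at 151, 147 and 149 against 158, 152 and 162 CPM with an adjusted p of 0.0485. This call was lost without any of luciferase 1, 2 or 3 or SETBP1-D868N 1 or 3 (adjusted p = 0.0668, 0.166, 0.114, 0.105 and 0.185). Bub1 did not pass the test (0.030 ± 0.038).

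The destruction and chromatid separation genes showed both directions. Cdc20, the activator of the anaphase-promoting complex, rose from 135, 132 and 137 to 144, 146 and 147 CPM (0.11 ± 0.027). Pttg1, which encodes securin, the inhibitor of separase, fell from 14.1, 13.8 and 12.8 to 12.5, 12.5 and 11.3 CPM (-0.17 ± 0.061, adjusted p = 0.0402). Its groups did not overlap, but the gap was narrow, and the call was lost without luciferase 1, luciferase 2 or SETBP1-D868N 3 (adjusted p = 0.127, 0.122 and 0.134). Espl1, for separase itself, had 86.97, 77.6 and 73.1 CPM with luciferase and 77.5, 79.2 and 89.7 CPM with the mutant, with wide overlap. Ube2c and Cdca3 did not pass the test (0.070 ± 0.029 and 0.017 ± 0.026).

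At the centromere and kinetochore, where microtubules attach, Cenpa, Nuf2 and Spc24 rose and 4 genes did not pass the test. Cenpa, the centromeric histone H3 variant, was at 129, 128 and 136 CPM with luciferase and 142, 138 and 137 CPM with the mutant (0.089 ± 0.030). Its call was lost without luciferase 1 or 2 or SETBP1-D868N 1 or 2 (adjusted p = 0.0787, 0.129, 0.0997 and 0.0676). Ndc80, a core microtubule-binding subunit, was at 52.9, 52.9 and 54.7 against 55.5, 55.4 and 56.6 CPM (0.062 ± 0.031, adjusted p = 0.125). Nuf2 and Spc24, subunits of the same complex as Ndc80, rose by 0.15 and 0.16, and Spc25 did not pass (0.047 ± 0.034). Cenpf, a large protein of the outer kinetochore, had the lowest log2 ratio of the 55 (-0.22 ± 0.18) but was not called: its levels were 58.2, 42.3 and 45.1 CPM with luciferase and 35.004, 42.8 and 47.2 CPM with the mutant. Cenpe, a kinetochore motor, was similarly spread, with 84.3, 73.1 and 72.8 against 67.8, 75.2 and 84.5 CPM. Luciferase 1 was the highest control for both genes, and SETBP1-D868N 1 the lowest mutant library.

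Among the kinesin motors Kif15, Kif18b and Kif2c rose, Kif23 fell and Kif11, Kif20a and Kif4 did not pass the test. Kif11, the motor that pushes the spindle poles apart, was at 223, 212 and 217 CPM with luciferase and 221, 228 and 235 CPM with the mutant, and Kif20a, a motor of the central spindle, at 148, 137 and 138 against 147, 150.04 and 148 CPM. Kif20a shares 29.3% of its exon bases with Cdc23 on the opposite strand, and the handling of strand is not given in the sources used here. Kif23, the motor of the centralspindlin complex, went from 116, 115 and 114 to 96.6, 107 and 105 CPM (-0.16 ± 0.037, adjusted p = 0.00377). This fall was called in each alternative and without each library in turn. Racgap1, the centralspindlin partner of Kif23, was not called: its levels were 157, 156 and 155 with luciferase and 157, 169.7 and 164 CPM with the mutant (0.065 ± 0.031).

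Of the 7 spindle and microtubule proteins 5 rose. Tpx2, which activates Aurora A at the spindle, went from 221, 216 and 211 to 228, 237 and 239 CPM (0.12 ± 0.028), and Ckap2, a microtubule-associated spindle protein, rose by 0.24 ± 0.035, the second highest ratio of the 55. Hmmr, Ckap2l and Dlgap5 rose by 0.17, 0.093 and 0.11. Nusap1 and Prc1, which bundle spindle microtubules, had log2 ratios of -0.014 ± 0.031 and 0.0051 ± 0.028 and were not called. Of the cytokinesis genes Ect2, the activator of RhoA at the cleavage site, rose by 0.19 ± 0.030, and Anln did not pass (0.026 ± 0.036).

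Condensin compacts chromosomes, and its core subunits Smc2 and Smc4 and the condensin I subunit Ncapg rose. Smc4 went from 289, 290.3 and 290.1 to 320.5, 330.1 and 331 CPM (0.17 ± 0.024), with libraries of each group close together. Ncapd2 had 279, 266 and 265 CPM with luciferase and 273, 276 and 290.5 CPM with the mutant, and Ncaph a log2 ratio of 0.037 ± 0.031; neither passed the test. Top2a was at 632, 573 and 577 CPM with luciferase and 564, 604 and 653 CPM with the mutant. Mki67, which encodes the proliferation marker Ki-67 on the surface of mitotic chromosomes, had 557, 420.4 and 415 CPM with luciferase and 335, 408 and 458 CPM with the mutant (-0.21 ± 0.19, adjusted p = 0.422). Neither Top2a nor Mki67 was called, and the 95% interval for Mki67 ran from -0.72 to 0.30.

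The 5 genes with the widest spread between libraries of a group, Cenpf, Mki67, Cenpe, Espl1 and Top2a, all had at least 8 kb of merged exons. Mad2l1, Kif15, Prc1 and Anln were also that long but varied less. Their SETBP1-D868N libraries differed by 1.01-, 1.06-, 1.05- and 1.09-fold, and those of Top2a by 1.16-fold. Among all 2303 tested genes of that length, 9 of them mitosis genes, the median log2 deviation from the group mean was 0.028 in luciferase 1 and 0.031 in SETBP1-D868N 3, and -0.038 in SETBP1-D868N 1. For the 9 mitosis genes these medians were 0.090, 0.10 and -0.083, and for the other 46 they were 0.014, 0.011 and -0.017. The part of this shift in the spread of Mki67 and Cenpf was not tested.

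**Figure D3:**
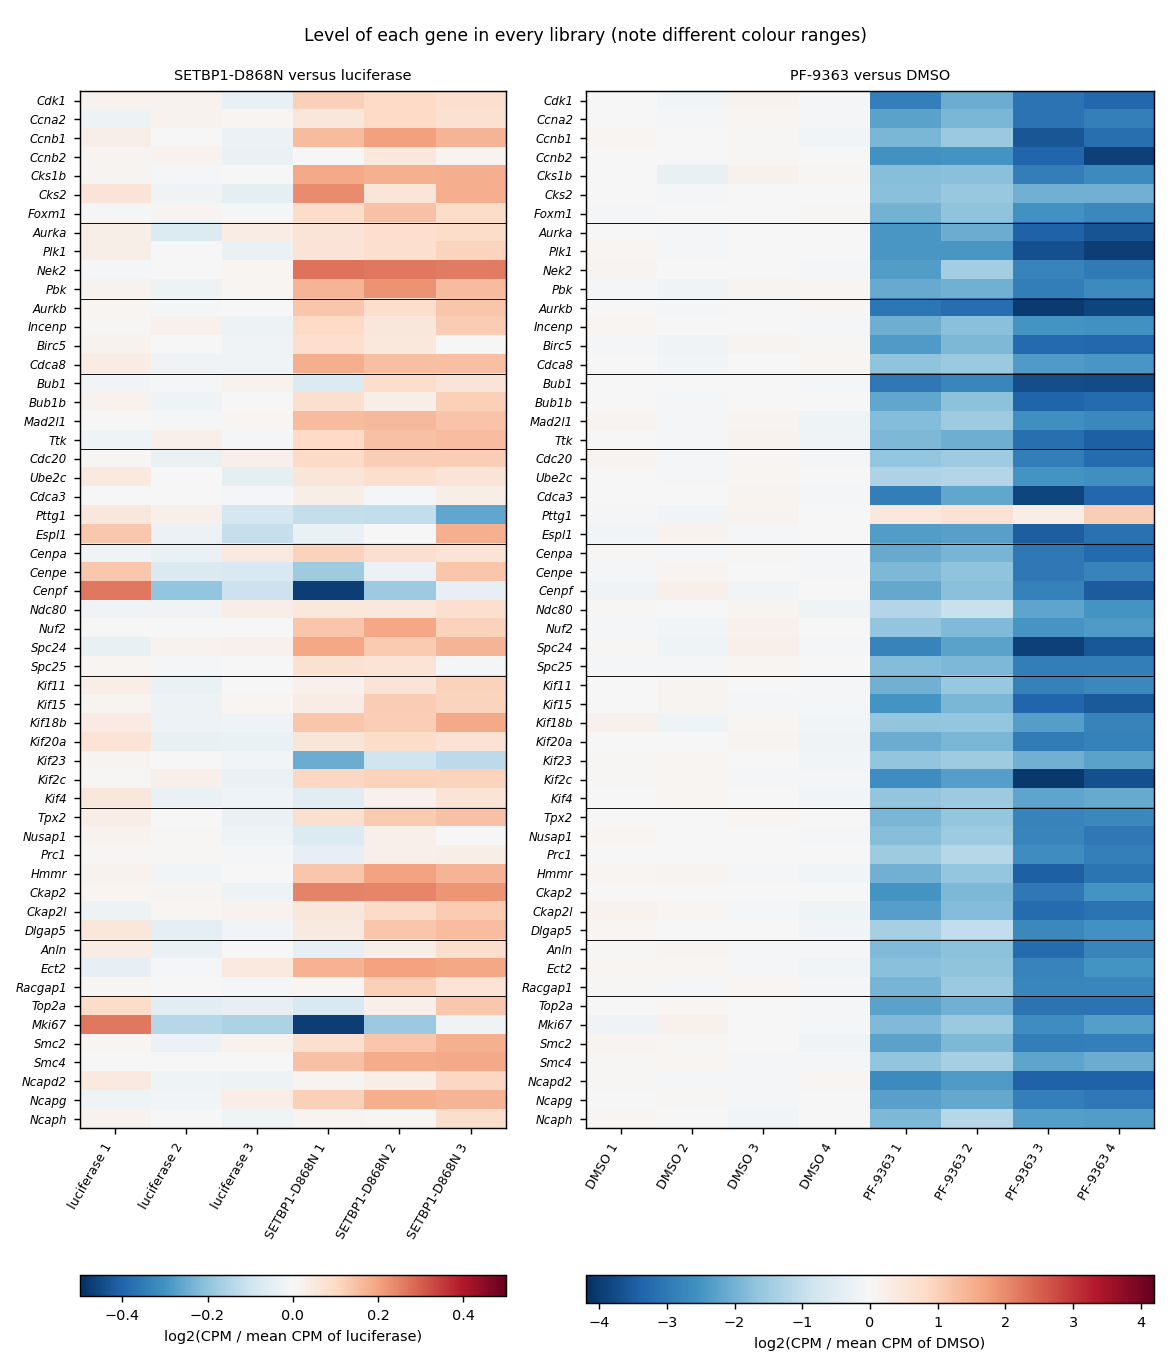
Level of each gene (rows, grouped by role) in each library (columns) as log2 of its CPM over the mean of the control group, luciferase on the left and DMSO on the right, with different colour ranges. All 4 PF-9363 columns are blue for 54 genes, and PF-9363 3 and 4 are darker than PF-9363 1 and 2 for most of them. Mki67 and Cenpf stand out on the left by their spread.

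The PF-9363 comparison asked how inhibition of MYST acetyltransferases changes expression in cells carrying SETBP1-D868N. Of the 55 genes 54 fell, each at least 2-fold, and 1, Pttg1, rose (4 libraries per group, the same test). Among all 13456 genes tested, 76% were called, with 39.4% lower and 36.6% higher, and 18.1% were called at least 2-fold lower. The median log2 ratio of the 55 was -2.27, against -0.038 over all genes, and the 54 lay between the 1.78th and 10.7th percentile of all log2 ratios. No DMSO library overlapped a PF-9363 library for any of the 55 genes, against 70.3% of all genes without overlap. Scaling by library size alone moved the median of all genes by -0.23 and that of the 55 to -2.49. The same 54 genes were called lower, and Pttg1 higher, under each alternative run. The 31 genes called higher with SETBP1-D868N were all called lower with PF-9363. So were the 22 genes not called with SETBP1-D868N, and Kif23, which was called lower there. With 54 of the 55 lower, this overlap does not set the 31 apart. Of all 3568 genes called higher with SETBP1-D868N that were tested in both experiments, 62.8% were called lower with PF-9363.

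The 7 genes of the CDK1 group fell to between 12.7% and 28.2% of their DMSO level. Cdk1 was at 143, 129.8, 158 and 135 CPM with DMSO and at 19.2, 33.4, 16.7 and 14.4 CPM with PF-9363 (log2 ratio -2.76 ± 0.24, adjusted p = 3.36e-05), where PF-9363 2 was the highest treated library. Ccnb1 fell from 184, 173, 181 and 161 to 46.4, 59.04, 14.6 and 19.5 CPM (-2.31 ± 0.40). Its treated libraries differed by 4.03-fold, the widest range of the 55. Cks1b fell from 95.1, 76.9, 108 and 98.7 to 27.2, 27.97, 12.8 and 14.9 CPM (-2.18 ± 0.27). Cks2 fell from 86.8, 84.4, 86.5 and 88.001 to 25.9, 28.9, 21.3 and 21.6 CPM (-1.82 ± 0.089), and its treated libraries differed by only 1.35-fold, the narrowest range. Foxm1 fell from 48.6, 50.3, 50.6 and 52.4 to 12.9, 15.5, 8.72 and 7.81 CPM (-2.16 ± 0.14). Ccna2 and Ccnb2 had log2 ratios of -2.45 and -2.97.

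All 4 other mitotic kinases fell. Plk1 went from 97.2, 85.6, 90.8 and 92.99 CPM with DMSO to 16.7, 17.02, 7.16 and 5.97 CPM with PF-9363 (-2.95 ± 0.31), so that 12.8% of its level was left. Aurka fell from 78.3, 76.7, 80.4 and 80.7 to 14.6, 18.7, 7.47 and 6.40 CPM (-2.73 ± 0.29). For both kinases PF-9363 3 and 4 were the lowest libraries, with PF-9363 4 below PF-9363 3. Nek2 and Pbk had log2 ratios of -2.27 and -2.37.

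Aurkb, the kinase of the passenger complex, had the largest fall of the 55. It was at 87.3, 82.7, 85.9 and 89.7 CPM with DMSO and 10.6, 9.41, 5.29 and 5.97 CPM with PF-9363, a log2 ratio of -3.44 ± 0.13 with 9.05% left (adjusted p = 2.26e-15). Birc5 fell from 84.7, 79.3, 96.1 and 91.3 to 16.8, 23.98, 9.18 and 9.002 CPM (-2.57 ± 0.29). Incenp and Cdca8, the scaffold and the borealin subunit of the same complex, had log2 ratios of -2.17 ± 0.16 and -1.96 ± 0.19; the differences between these subunits were not tested. In the spindle checkpoint Bub1 had a log2 ratio of -3.22 ± 0.18, the second lowest of the 55. Bub1b fell from 145, 137, 144 and 146 to 31.8, 43.2, 14.01 and 15.2 CPM (-2.44 ± 0.34) and Mad2l1 from 122, 105, 119.6 and 98.98 to 31.5, 39.4, 18.8 and 17.03 CPM (-2.05 ± 0.26). Ttk had a log2 ratio of -2.45.

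Of the genes of destruction and chromatid separation 4 fell and Pttg1 rose. Cdc20 went from 108, 95.2, 103 and 95.1 CPM with DMSO to 32.5, 35.8, 13.4 and 10.7 CPM with PF-9363 (-2.10 ± 0.37), and Espl1 from 44.6, 53.2, 46.5 and 47.2 to 9.48, 9.93, 4.36 and 5.42 CPM (-2.69 ± 0.17). Ube2c, the ubiquitin-conjugating enzyme of the anaphase-promoting complex, kept 29.4% of its level, and Cdca3 13.1%. Pttg1 (chromosome 11, 43420250 to 43426251 in GRCm38, minus strand) was at 9.02, 8.68, 10.6 and 9.71 CPM with DMSO and 12.9, 14.6, 11.5 and 19.4 CPM with PF-9363. Its log2 ratio was 0.63 ± 0.15 (adjusted p = 5.78e-04), and every treated library was above every DMSO library, with PF-9363 4 the highest. Without PF-9363 4 the log2 ratio was 0.46 (adjusted p = 0.00883), and with library size alone it was 0.40 (adjusted p = 0.0205). In GENCODE M21 Pttg1 shares no exon base with another gene, and no other transcript was at least 95% identical to it over 150 bases or more. Securin and separase, an inhibitor and its target, thus moved in opposite directions at the transcript level.

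All 7 centromere and kinetochore genes fell. Cenpa went from 112, 106, 114 and 104 CPM with DMSO to 25.4, 28.2, 13.7 and 11.4 CPM with PF-9363 (-2.46 ± 0.27) and Cenpf from 79.2, 100.4, 80.9 and 89.5 to 19.9, 25.8, 12.3 and 7.70 CPM (-2.41 ± 0.32). Ndc80 had the smallest fall of the 54, from 59.6, 58.1, 63.1 and 51.6 to 24.6, 30.2, 12.6 and 10.2 CPM (-1.57 ± 0.33), with 33.4% left and the highest adjusted p of the 55 (0.00393). The other subunits of its complex had log2 ratios of -2.04 ± 0.15 for Nuf2, -2.97 ± 0.26 for Spc24 and -2.26 ± 0.21 for Spc25. Cenpe had a log2 ratio of -2.23.

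The kinesins fell to between 12.5% (Kif2c, a microtubule depolymerase) and 28.3% (Kif23) of the DMSO level. Kif11 went from 189, 207, 192 and 179 to 47.4, 64.3, 26.9 and 29.4 CPM (-2.18 ± 0.27), and Kif20a from 115, 114, 124 and 103 to 26.8, 29.8, 14.8 and 15.9 CPM (-2.37 ± 0.21). Kif15, Kif18b and Kif4 had log2 ratios of -2.67, -2.01 and -1.83. Tpx2, of the spindle proteins, fell from 182, 184, 196 and 182 to 49.5, 59.8, 26.8 and 28.7 CPM (-2.16 ± 0.26). Nusap1, Prc1, Hmmr, Ckap2, Ckap2l and Dlgap5 had log2 ratios from -2.49 (Ckap2l) to -1.74 (Dlgap5). Summed over its 7 genes, this group differed by 2.64-fold between the highest and the lowest treated library, the widest of the 10 role groups. Racgap1, of the cytokinesis group, fell from 125, 114, 127 and 116 to 30.9, 40.6, 18.2 and 18.1 CPM (-2.16 ± 0.25), and Anln and Ect2 had log2 ratios of -2.24 and -2.10.

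All 7 genes of chromosome structure fell, among them Top2a, Mki67 and Smc4, the 3 with the highest DMSO levels of the 55 in CPM. Top2a fell from 691, 733, 696 and 665 CPM with DMSO to 147, 172, 80.5 and 80.8 CPM with PF-9363 (-2.53 ± 0.28), and Mki67 from 489, 621, 541 and 526 to 152, 184, 89.8 and 111 CPM (-2.02 ± 0.23). Smc4 fell from 406, 414, 383 and 376 to 126, 150.04, 85.3 and 92.3 CPM (-1.80 ± 0.18) and Ncapd2 from 276, 251, 257 and 279 to 41.2, 50.7, 25.4 and 24.9 CPM (-2.90 ± 0.23). Smc2, Ncapg and Ncaph had log2 ratios of -2.40, -2.52 and -1.86. Per kilobase of merged exon, the highest DMSO levels were those of Cks2 (125 ± 2.15 CPM per kb), Cks1b (84.0 ± 11.5) and Top2a (77.2 ± 3.13). The lowest was that of Pttg1 (4.75 ± 0.42). With PF-9363 Cks2 was still the highest (35.3 ± 5.24 CPM per kb), and Pttg1 was in place 14 of the 55 (7.30 ± 1.72).

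The 4 PF-9363 libraries differed in these genes, and the difference ran through nearly all of them. As a share of the DMSO mean, the summed level of the 55 was 24.7% in PF-9363 1, 29.8% in PF-9363 2, 13.9% in PF-9363 3 and 14.4% in PF-9363 4. Without Pttg1, the median gene was at 24.8%, 29.6%, 13.4% and 13.6%. PF-9363 2 was the highest treated library for 50 of the 55 genes and the highest or the second for all 55, and PF-9363 1 was the highest or the second for 53. PF-9363 3 was the lowest or next to lowest for all 55. Across treated libraries the highest level exceeded the lowest by a median of 2.29-fold per gene, against 1.14-fold across DMSO libraries. Total counts were 10359093, 8273271, 7083731 and 10204901 in the same order, and the part of depth in the order of the levels was not tested. Leaving out PF-9363 1 and 2 together gave a median log2 ratio of -2.88, and leaving out PF-9363 3 and 4 together gave -1.83; 54 genes were called lower both times. These 2 fits were added after the libraries had been seen.

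Other measures moved with this order by smaller amounts. The 27 DNA replication genes summed to 783, 834, 649 and 645 CPM in PF-9363 1 to 4, a range of 1.29-fold where the 55 mitosis genes spanned 2.15-fold. The 7 CDK inhibitors summed to 723, 682, 839 and 784 CPM, highest in the libraries with the lower mitosis levels. The 7 macrophage markers (Adgre1, Csf1r, C1qa, C1qb, Cd68, Mrc1 and Fcgr1) summed to 3268, 2946, 3516 and 3534 CPM and 8 mast cell and basophil markers to 4208, 4551, 5123 and 5209.8 CPM. The 6 early granulocyte markers (Mpo, Elane, Prtn3, Ctsg, Ms4a3 and Cebpe) summed to 463, 524, 348 and 332 CPM. The part of these shifts in the order of the libraries was not tested.

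**Figure D4:**
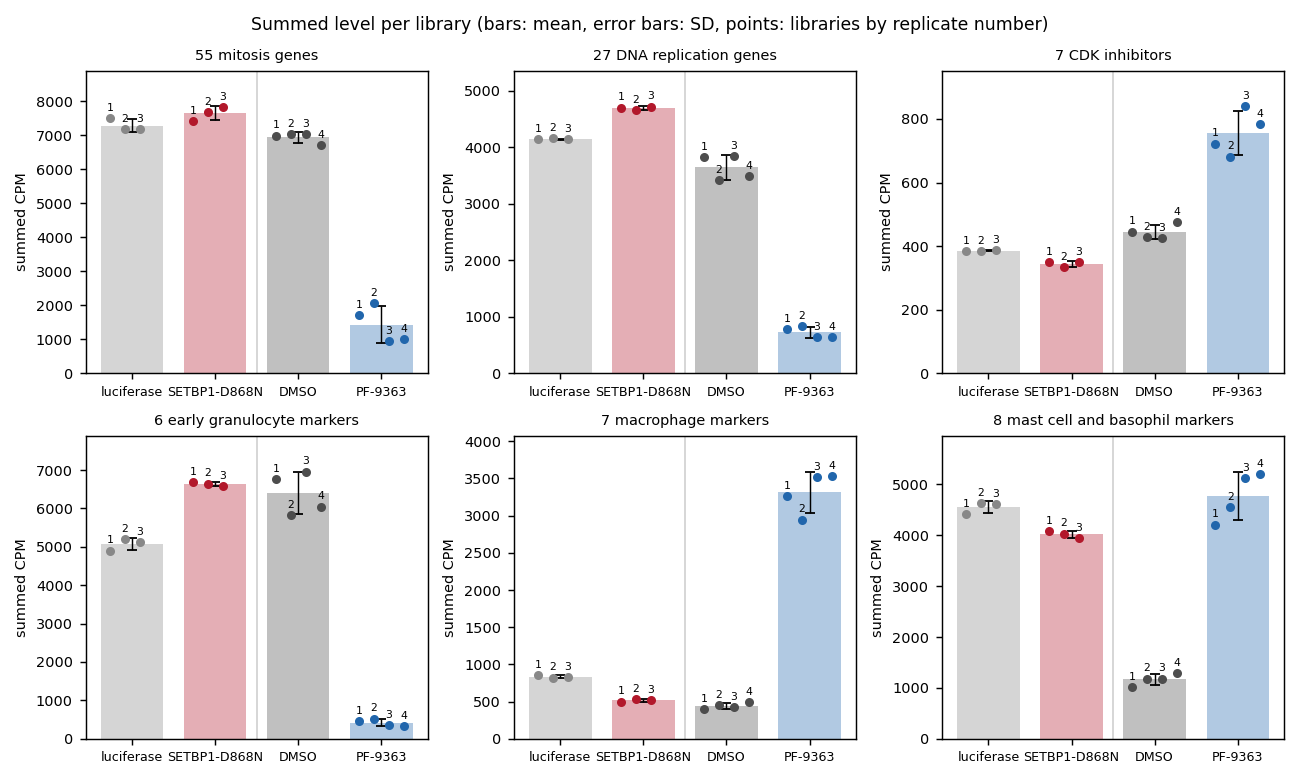
Summed CPM (y axes) of 6 gene lists in each library: points are libraries with their replicate numbers, bars the group means and error bars the SD. The 55 mitosis genes averaged 6936 CPM with DMSO and 1436 CPM with PF-9363, and PF-9363 libraries 1 and 2 stand above 3 and 4. Groups left and right of the grey line belong to separate experiments.

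Cell type markers also moved between the groups. With PF-9363 all 7 macrophage markers rose at least 2-fold, against 15.8% of all genes, and their sum went from 397 to 489 CPM with DMSO to 2946 to 3534 CPM. Of the mast cell and basophil markers 7 of 8 rose, from summed levels of 1012 to 1287 CPM to 4208 to 5209.8 CPM, and all 6 early granulocyte markers fell, from 5825 to 6956 CPM to 332 to 524 CPM. With SETBP1-D868N the 6 late neutrophil markers all fell, with sums of 20576 to 21302 CPM with luciferase and 11075 to 13514 CPM with the mutant. The 7 macrophage markers all fell too, from 823 to 857 CPM to 498 to 529 CPM. Of the 6 early granulocyte markers 5 rose and 1 fell, and their sum went from 4902 to 5195 CPM to 6583 to 6686 CPM. Of the 6 progenitor markers 3 rose and 3 fell, and their sums overlapped, at 1124 to 1142 CPM and 1088 to 1127 CPM. Of the 8 mast cell and basophil markers 3 rose and 5 fell, with sums of 4411 to 4626 CPM and 3939 to 4081 CPM. Among all genes 24.5% were called higher and 22.7% lower with SETBP1-D868N. Markers of eosinophils went from 593 to 776 CPM with DMSO to 231 to 326 CPM, those of megakaryocytes went from 37.6 to 45.8 CPM to 208 to 228 CPM, and those of progenitors from 374 to 422 CPM to 833 to 935 CPM, with 3 of 6 genes higher and 2 lower. Late neutrophil sums overlapped, at 13751 to 16866 CPM with DMSO and 16223 to 17639 CPM with PF-9363. Of these 6 genes 1 was called at least 2-fold higher, 1 at least 2-fold lower, and 4 were not called. The part of these markers in the levels of the mitosis genes was not tested.

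Related pathways are read against the 36.6% of all genes called higher and 39.4% called lower with PF-9363. With PF-9363, the 27 DNA replication genes all fell (median log2 ratio -2.55), from -3.97 ± 0.14 for the helicase subunit Mcm6 to -0.38 ± 0.077 for Gins2. Of 33 further kinetochore genes 32 fell (median -1.82), with Cenph lowest (35.6 ± 1.39 against 3.29 ± 1.93 CPM, SD, n = 4) and Bub3 the least reduced of those called (-0.48 ± 0.072). All 17 centrosome and spindle pole genes fell (median -1.51), from Cep55 (-2.71 ± 0.16), which acts in abscission, to Tubgcp2 (-0.84 ± 0.095). The 3 condensin II subunits fell (median -1.88), with Ncapg2 lowest (-1.98 ± 0.16). Of 13 entry and exit switches 11 fell and 2 rose (median -2.18): the CDK1-activating phosphatase Cdc25c fell most (-2.64 ± 0.21), and the phosphatase subunit Ppp2r2a rose most (0.59 ± 0.073).

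The ubiquitin ligase and cohesin lists, whose subunits also serve cells outside mitosis, had medians nearer 0. Of 16 genes of the anaphase-promoting complex 15 fell and Anapc16 rose (0.76 ± 0.092); the median was -0.65 and Cdc16 fell most (-1.72 ± 0.093). Of 15 cohesin genes 8 fell and 5 rose (median -0.84). Sgo2a, the centromere guardian of cohesin, fell most (-2.79 ± 0.30), and the acetyltransferase Esco1 rose most (0.75 ± 0.072). Among the risen cohesin genes Mau2 was below DMSO with library size alone (0.21 ± 0.074 with TMM scaling and -0.021 as a ratio of means with library size).

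The regulators of these promoters moved unevenly. Of 22 RB, E2F, MuvB and NF-Y genes 15 fell and 3 rose with PF-9363 (median -0.52). Mybl2, which encodes B-MYB, fell from 106 ± 7.87 to 5.23 ± 3.58 CPM (-4.36 ± 0.30, adjusted p = 7.14e-06), a lower log2 ratio than any of the 55, and E2f3 rose most (0.32 ± 0.096). The NF-Y subunit genes Nfya, Nfyb and Nfyc had log2 ratios of 0.26 ± 0.067, -0.48 ± 0.091 and -0.074 ± 0.097, and Nfyc was not called. Of 6 CDK inhibitors tested 3 rose and 2 fell. Cdkn2a, which encodes p16 and p19ARF, rose from 7.41 ± 1.05 to 106 ± 19.9 CPM (3.83 ± 0.14). Cdkn1a, for p21, rose from 193 ± 15.5 to 464 ± 59.8 CPM (1.26 ± 0.081), and Cdkn2b by 2.43 ± 0.20. Cdkn2c, for p18, fell most (-2.67 ± 0.13), while Cdkn1b was not called (-0.084 ± 0.067).

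With SETBP1-D868N the ratios in the same lists were small, and the counts stand against 24.5% of all genes called higher and 22.7% called lower. Of the 27 replication genes 23 rose and none fell (median 0.20), with Mcm2 highest (0.28 ± 0.024). Of the 33 kinetochore genes 21 rose and Hjurp fell (-0.15 ± 0.025), with Cenpp highest (0.30 ± 0.061). Of the 16 genes of the anaphase-promoting complex 6 rose, with Cdc23 highest (0.21 ± 0.030), and 6 of the 17 centrosome genes rose, with Haus6 highest (0.30 ± 0.038). Of the 15 cohesin genes 4 rose, a share near that of all genes, with Cdca5 highest (0.15 ± 0.034), and 2 fell, with Stag2 lowest (-0.11 ± 0.029). None of the 3 condensin II genes was called. Of the 13 switches 7 rose, with Bora, an activator of Aurora A, highest (0.40 ± 0.029), and Ensa fell (-0.19 ± 0.032). Of the 22 regulators 11 rose, with Mybl2 highest (0.36 ± 0.030), and 3 fell, with E2f2 lowest (-0.28 ± 0.026). Of the 7 CDK inhibitors 3 rose, with Cdkn1c highest (0.666 ± 0.168 against 1.12 ± 0.252 CPM, SD, n = 3), and 4 fell, with Cdkn2d lowest (-0.28 ± 0.040).

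**Figure D5:**
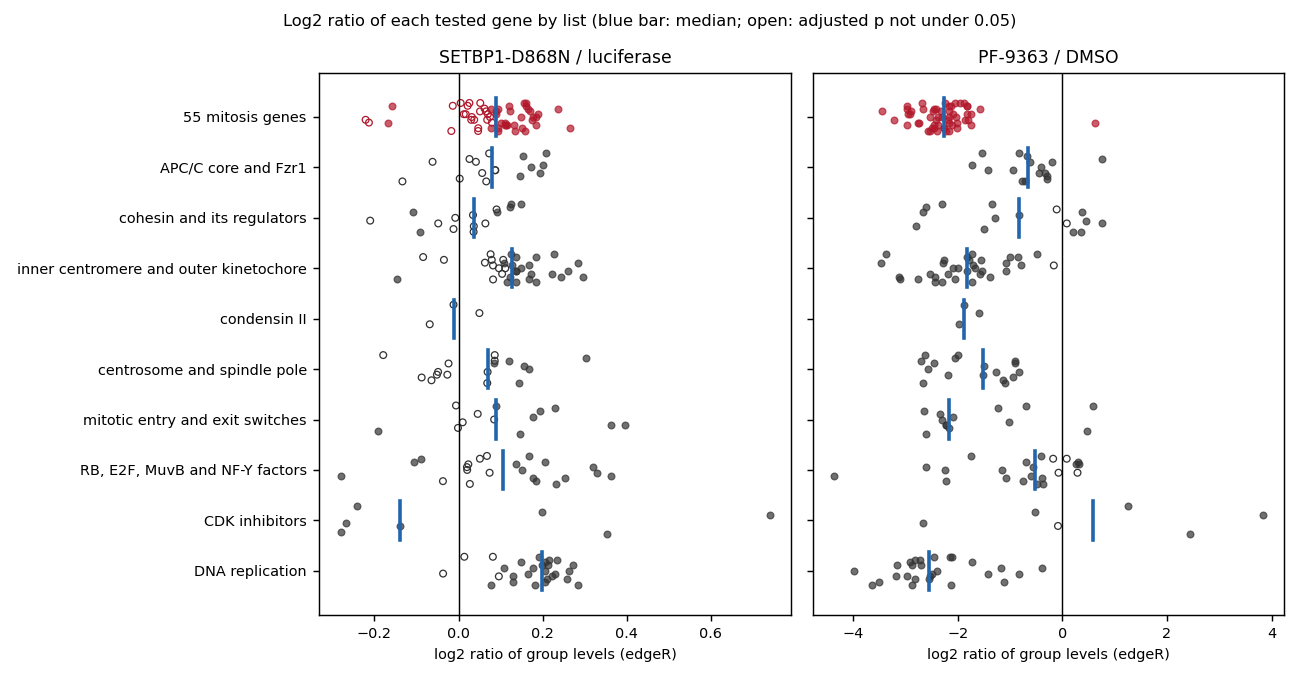
Log2 ratio (x axis) of each tested gene in the 55 mitosis genes (red) and 9 related lists (black), for SETBP1-D868N over luciferase (left) and PF-9363 over DMSO (right). Blue bars are list medians and open points were not called. On the right the medians run from -2.55 for DNA replication to 0.59 for the CDK inhibitors.

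Genes with and without the promoter motifs responded over overlapping ranges. With PF-9363 the median log2 ratio was -2.44 for the 19 genes with a CHR match (range -2.98 to -1.75) and -2.23 for the 26 without (range -3.22 to 0.63). It was -2.32 for the 35 genes with CCAAT and -2.09 for the 10 without. The 8 genes with neither motif were Birc5, Anln, Nusap1, Mad2l1, Nuf2, Ncaph, Ndc80 and Pttg1, with log2 ratios of -2.57, -2.24, -2.12, -2.05, -2.04, -1.86, -1.57 and 0.63. Top2a, with 4 CHR and 6 CCAAT matches, had a log2 ratio of -2.53. This lay between that of Birc5 and those of the other genes with neither motif. The Pttg1 window may not be the promoter of the transcript counted. With SETBP1-D868N the medians were 0.093 and 0.064 with and without CHR, and 0.079 and 0.054 with and without CCAAT. These medians are a description of 45 genes and were not tested.

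Some counts could include reads of other genes. Exons of Ube2c, Kif4, Ncapg, Ccna2 and Prc1 overlap those of a gene on the opposite strand over 22.8%, 15.1%, 13.4%, 12.5% and 11.1% of their length. Smaller overlaps of this kind included Plk1 (7.09%), Nek2 (6.6%) and Ckap2l (5.77%). The gene opposite Plk1 held at most 2 counts in an earlier library and 223 in a later one. These maxima were 97 and 81 opposite Nek2, 1 and 107 opposite Ckap2l, and 2 and 4 opposite Ube2c. Whether strand was handled alike in both experiments was not tested. Processed pseudogenes nearly identical to Ccnb1 held at most 32 counts in any library of the earlier experiment and 3 in the later one. For Cks2, 3 processed pseudogenes matched 240 of its 692 bases at 98.3% to 100% identity. They held at most 18 counts in the earlier experiment and 4 in the later one.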

How the data were processed

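The values are raw read counts per gene symbol in tables the authors deposited, 1 table per experiment. Per the submitters' processing notes, STAR, DESeq2 and the builds GRCm38 and mm10 were used, with no version or role named. The counting program, annotation and strand handling are not given in the sources used here. The number of columns left unmapped to a sample was 0.

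Each experiment was fitted separately with edgeR 4.0.16 (R 4.3.3). Genes were kept by filterByExpr (minimum count 10, minimum total 15), libraries were scaled by TMM, and the robust quasi-likelihood F-test was applied without covariates. The p-values were adjusted by Benjamini-Hochberg over all genes tested and called under 0.05. Levels are CPM on TMM-scaled libraries, computed here, and deposited counts were not otherwise changed. Levels per kilobase used merged exons of GENCODE M21. Intervals of 95% come from the fit, and the scripts were tested on simulated data. Near-identical transcripts were sought with blastn 2.17.0 (at least 95% identity over 150 bases).

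The mitosis genes, roles, pathway lists and markers were chosen with earlier results of these data known, so no test was made of a list as a whole. Some marker genes are not reported here. The 25 genes set by name were given with values in every library. Also named, many without library values, were the genes with the highest and lowest ratios, those not called and those next to the threshold. Of each related list, the called genes with the largest rise and fall were named. Genes named beyond this rule were chosen after their values were seen. Alternatives were RLE and library-size scaling, 2 other filters, no robust estimation, DESeq2 1.42.0, limma-voom 3.58.1, a replicate block and each library left out in turn.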

Additional observations from a re-analysis of the deposited data

Results flagged for a closer look

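Of the 90 groups of 4 values that were examined, 5, all of them DMSO groups, held a library far from the others by Dixon's test at its 95% critical value, and chance flags about 1 in 20 such groups. Bub1b was lowest in DMSO 2, at 136.6 CPM against 144 to 146 CPM in the other 3 libraries. Tpx2 was highest in DMSO 3, at 196 CPM against 182 to 184 CPM. The summed level of the 55 mitosis genes was lowest in DMSO 4, at 6699.5 CPM against 6991 to 7031 CPM. Summed levels were lowest in DMSO 2 for the chromosomal passenger complex, at 432 CPM against 460.4 to 465 CPM, and for the other mitotic kinases, at 264 CPM against 284 to 286 CPM. Each of these departures was under 10% of the level of the nearest library.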

How the results depend on the processing

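With PF-9363 the same 54 genes were called lower and Pttg1 higher under each alternative run, and all 54 were called at least 2-fold lower. The median log2 ratio lay between -2.49 and -2.08 without each library in turn, and was -2.88 without PF-9363 1 and 2. With SETBP1-D868N the count of genes called higher was 22 to 30 without each library in turn, 24 with DESeq2, 41 with library size alone and 30 with RLE scaling, either other filter, limma-voom or no robust estimation. The count called lower was 1 with library size alone and with DESeq2, and 1 to 2 without each library in turn. The median was 0.14 with library size alone, and the mean summed level with DMSO was then 7515 CPM against 6936 CPM with TMM. Among the mitosis genes named, directions turned for 8 that were not called, at log2 ratios near 0. Prc1 was at -0.0028 with RLE scaling and with DESeq2 and at -0.00027 with a mean count of at least 10, and with library size alone Cenpe was at 0.032 and Nusap1 at 0.035. Without each library in turn, Prc1 ranged from -0.011 to 0.024, Cenpe from -0.10 to 0.057, Nusap1 from -0.040 to 0.010, Kif4 from -0.018 to 0.042, Espl1 from -0.019 to 0.13, Bub1 from -0.0057 to 0.073, Top2a from -0.026 to 0.080 and Anln from -0.0085 to 0.054. The cause was not tested. With the replicate block 25 genes were called higher and 2 lower with SETBP1-D868N, and 54 lower and 1 higher with PF-9363. Same-numbered libraries did not deviate together (r = -0.18, -0.045 and -0.14 in the earlier experiment, and 0.011, -0.019, -0.038 and -0.0066 in the later one, across genes). Whether same-numbered libraries shared an animal or a culture cannot be told from these values. The later experiment was the shallower, and Spc24 had 19 counts in PF-9363 3.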
